A study of Mus musculus with 15 samples.

Results

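The genes described here are the targets and machinery of ATF4, the transcription factor of the integrated stress response, and of the unfolded protein response, which answers misfolded protein in the endoplasmic reticulum (ER). They were taken by name from a list of 50 symbols, all of which were among the 24421 genes in the deposited count table, and all 50 had enough counts to be tested. RNA-seq counts came from 15 libraries of primary cells of the proximal tubule, a kidney segment that reabsorbs most of the filtered solutes, prepared from C57BL/6 mice. Mice were wild type (WT) or Diet1 knockout (KO), and Diet1 is known as a regulator of bile acid metabolism. WT cells gave 4 libraries per sex, and KO cells 3 libraries from males and 4 from females. The labels give no further allele or treatment and no age, and say that the cells had been through a single passage in culture. They also say that cells from 3 to 4 mice were combined per group and then divided into 4 technical replicates. Each group is therefore a single pool, and every p-value covers technical spread within pools, not the spread of mice or cultures.

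The unfolded protein response starts from 3 sensors in the ER membrane. PERK (gene Eif2ak3) phosphorylates the translation factor eIF2α, which lowers general translation and favours translation of Atf4. IRE1 (Ern1) splices the Xbp1 transcript, and ATF6 is cut in the Golgi to release a transcription factor. ATF6 and XBP1 are known to raise chaperones and degradation factors of the ER, while ATF4 raises genes of amino acid synthesis and transport, aminoacyl-tRNA synthetases and a set of stress regulators, and can be reached through other eIF2α kinases too. Because Atf4 and Xbp1 are regulated through translation and splicing, their summed transcript counts do not report their activity.

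These branches are known to act through short promoter elements, and stretches of promoter that hold them are printed here to show where they lie in some of the genes compared below. Promoters from 250 bases before to 50 after the start, from RefSeq on GRCm38.p6, were matched for 43 of the 50 genes. Aldh1l2, Cth, Wars, Nars, Manf, Hyou1 and Atf6 had none in the table. Both strands were searched for the ER stress element ERSE (CCAAT, any 9 bases, CCACG), for ERSE-II (ATTGG, any 1 base, CCACG), for the UPRE (TGACGTGG) and for the C/EBP-ATF element CARE (TGATGNAA). No matches of different motifs overlapped in these genes. In the sequences below, written 5′ to 3′ along the gene's strand, capitals mark the ERSE, which reads forward in Hspa5, Pdia6 and Dnajc3 and on the opposite strand in Calr.
Hspa5 (chr2:34772005-34772063, plus strand): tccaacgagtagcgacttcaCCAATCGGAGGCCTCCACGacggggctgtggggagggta
Calr (chr8:84847055-84847113, minus strand): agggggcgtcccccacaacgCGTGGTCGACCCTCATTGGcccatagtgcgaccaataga
Pdia6 (chr12:17266471-17266529, plus strand): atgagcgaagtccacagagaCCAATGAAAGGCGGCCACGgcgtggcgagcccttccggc
Dnajc3 (chr14:118937807-118937865, plus strand): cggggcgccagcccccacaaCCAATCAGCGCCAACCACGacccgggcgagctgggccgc

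In the next 5 sequences capitals mark the CARE, which reads forward in Asns and Pycr1 and on the opposite strand in Gars, Nupr1 and Chac1.
Asns (chr6:7693210-7693252, minus strand): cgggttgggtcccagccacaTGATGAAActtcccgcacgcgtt
Pycr1 (chr11:120643824-120643871, minus strand): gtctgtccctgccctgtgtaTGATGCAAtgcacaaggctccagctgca
Gars (chr6:55037951-55037998, plus strand): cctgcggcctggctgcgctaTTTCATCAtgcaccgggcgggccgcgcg
Nupr1 (chr7:126625553-126625600, minus strand): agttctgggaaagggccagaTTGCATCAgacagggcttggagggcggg
Chac1 (chr2:119351029-119351076, plus strand): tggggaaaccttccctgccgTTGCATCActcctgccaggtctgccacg

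Herpud1 held both a CARE (opposite strand, first capitals) and an ERSE-II (last capitals).
Herpud1 (chr8:94386297-94386407, plus strand): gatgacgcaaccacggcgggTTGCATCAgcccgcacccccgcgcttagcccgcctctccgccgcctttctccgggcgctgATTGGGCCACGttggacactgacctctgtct

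ERSE matches were found in 7 of the 12 chaperone genes with a promoter (Hspa5, Hsp90b1, Calr, Canx, Pdia6, Dnajc3 and Creld2) and in Syvn1, against 37 of 27025 genes in the whole table (0.137%). CARE matches were found in 4 of 12 genes for amino acid synthesis and aminoacyl-tRNA synthetases (Asns, Pycr1, Gars and Iars), and also in Trib3, Nupr1, Chac1, Vldlr and Herpud1, against 4.51% of all genes. None of the 12 chaperone genes held a CARE, and none of the 12 amino acid genes held an ERSE. ERSE-II matches were found in Dnajb11 and Herpud1 (0.0444% of all genes), and the UPRE letters occurred in none of the 43 (0.714% of all genes). These elements were first described on some of these very genes, so the shares are a description and not independent evidence. A window without the letters says nothing about whether a factor acts on the gene.

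Levels were compared between genes as CPM per kb of exon, where CPM is a gene's share of its library's counts, scaled by TMM, with SDs after ± taken across a group's libraries. By this measure the ER chaperones were the most abundant of these transcripts. Calr, a lectin chaperone, stood at 376 CPM per kb averaged over the 4 groups, the disulfide isomerase Pdia3 at 272, Hsp90b1 (GRP94) at 226 and Hspa5 (BiP, the main HSP70 chaperone of the ER) at 209.8. Ddit4 (149), an inhibitor of mTORC1, and Atf4 itself (137) were the most abundant outside the chaperones, and the least were Pycr1 (3.42), Vldlr (3.20) and the secreted glycoprotein Stc2 (1.28). The medians of the role lists were 66.4 CPM per kb for 14 chaperones and folding enzymes, 62.4 for 6 aminoacyl-tRNA synthetases, 28.1 for 10 enzymes of amino acid and folate metabolism, 19.7 for 4 sensors and their transcription factors, 19.1 for 5 genes of ER-associated degradation and translocation, 14.6 for 7 regulators of the ATF4 branch and 12.3 for 4 other ATF4 targets. The group means of a gene lay close together. The ratio of the highest to the lowest group mean had a median of 1.12 over the 50 genes and passed 1.5 for 3, namely Stc2 (1.71), Aldh1l2 (1.70) and Cebpb (1.59).

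**Figure D1:**
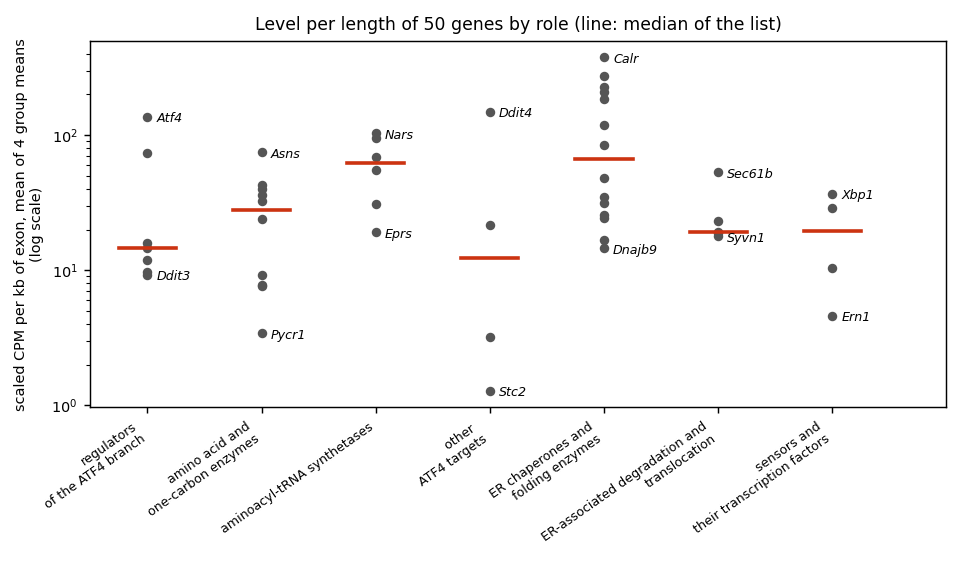
Level of each of the 50 genes in CPM per kb of exon (log axis), 1 point per gene for the mean of its 4 group means. Genes are grouped by role, with a line at the median of each list. The chaperones Calr, Pdia3, Hsp90b1 and Hspa5 sit at the top and Stc2 at the bottom.

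In KO against WT cells, changes in these genes were small in both sexes and ran differently in the sets of genes. A gene is called here where edgeR's quasi-likelihood test gave an adjusted p (Benjamini-Hochberg over the 13912 genes tested) below 0.05, and log2 fold changes are given ± standard error. In males 7 of the 50 genes were higher in KO and 14 lower, where 10.1% of all genes tested were called higher and 10.1% lower. The 7 became 3 without male WT 3 or male KO 3, and 4 without male WT 4 or male KO 2. With only the 2 male groups in the fit, Asns, Nars, Sec61b and Cth lost the male call and Cebpb was called lower. In females 18 were higher and 9 lower, where 20.7% of all genes were called higher and 18.6% lower. The members' shares in females were thus 36% and 18%, the second at the background, and in males 14% and 28%. The largest change of any of the 50 genes was -0.77 on the log2 scale (Aldh1l2 in males), and the median size without regard to sign was 0.090 in males and 0.096 in females, against 0.094 and 0.14 over all genes. With library size in place of TMM, the female median of all genes moved to -0.038, the share of called genes that were higher went from 52.7% to 39.9%, and the 50 genes split into 12 higher and 12 lower. Atf4, Iars, Pdia6, Edem1, Sec61b and Eif2ak3 then lost the female call, and Hspa5, Calr and Chac1 were called lower.

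The male and female contrasts share no library. Higher in both sexes were Ddit4, Nars, Phgdh, Sec61b, Asns, Eif2ak3 and Mthfd2 (7 genes), and lower in both were Atf6, Aldh1l2, Stc2, Cth and Pdia4 (5 genes). None of the 50 was called in opposite directions, 14 were called in neither sex, 9 in males and not in females, and 15 in females and not in males. Over all 13912 genes tested 1027 were higher in both, 697 lower in both and 215 opposite. Of these 13912 genes, 7574 were called in neither sex, 869 in males alone and 3530 in females alone. Opposite calls were thus rare over all genes too, and their absence is not a trait of the 50.

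**Figure D2:**
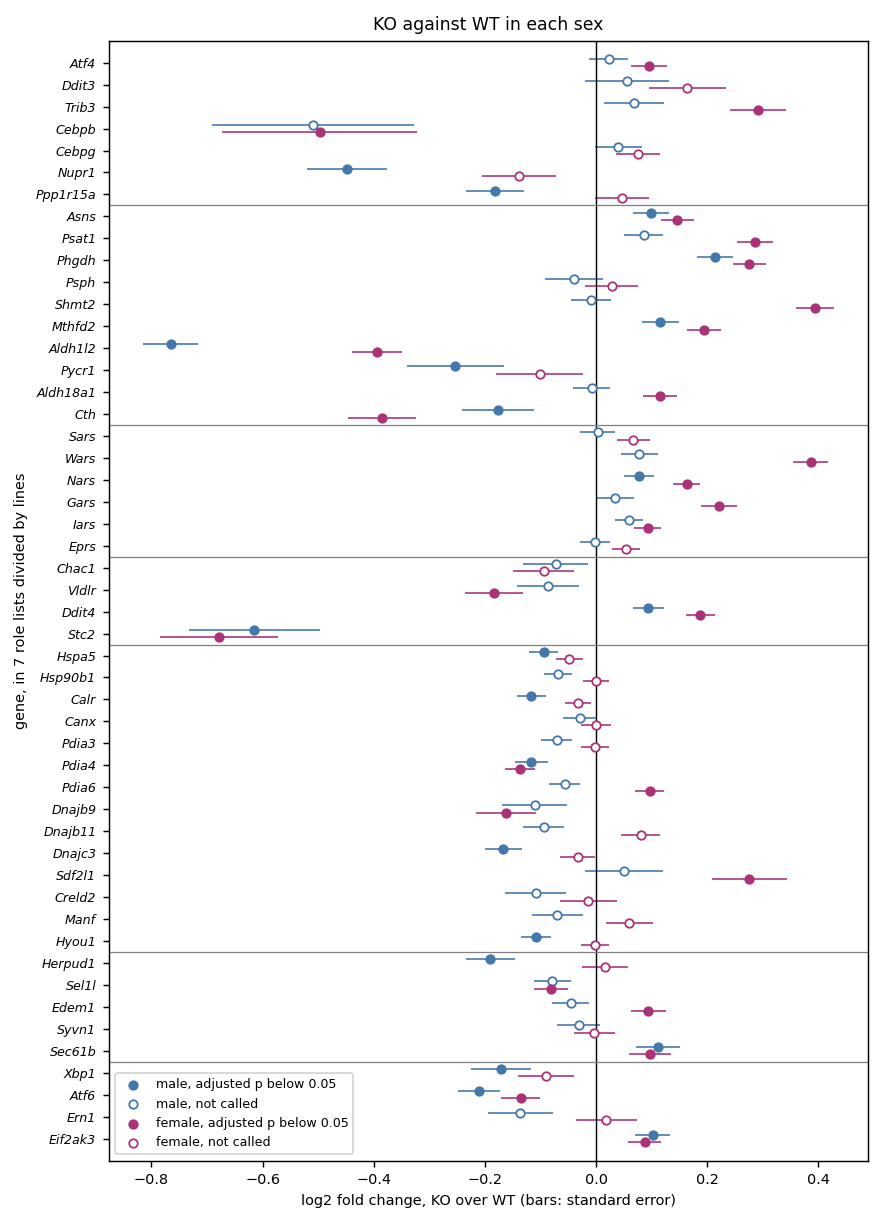
Log2 fold change of KO against WT for each of the 50 genes in males and in females, as estimates with standard errors, grouped by role. Genes of amino acid metabolism and the synthetases lie mostly to the right of 0 in females, the chaperones mostly to the left in males, and Aldh1l2 (-0.77 and -0.39), Stc2 (-0.62 and -0.68) and Cebpb (-0.51 and -0.50) lie far left in both.

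Among the 7 regulators of the ATF4 branch, none was called higher and 2 were called lower in males (Nupr1 and Ppp1r15a). The male count at an unadjusted p below 0.05 was 0 higher and 3 lower, and neither DESeq2 nor limma-voom called any higher. In females Atf4 and Trib3 were called higher and Cebpb lower. The shares called higher and lower were 0% and 28.6% in males, against 10.1% and 10.1% of all genes. In females they were 28.6% and 14.3%, against 20.7% and 18.6%. Atf4 (chr15:80255184-80257541) stood at 339, 315, 306 and 313 CPM in male WT libraries and 325, 331 and 314 in male KO. The female libraries held 317, 312, 309 and 319 CPM in WT and 354, 346, 317 and 325 in KO. The male groups overlapped, with a log2 fold change of 0.023 ± 0.035 (adjusted p = 0.724), and female WT libraries lay within 309 to 319 CPM, with 1 of 4 female KO libraries inside that range. The female fold change was 0.095 ± 0.033 (adjusted p = 0.0211), a call that was lost without female WT 2, female WT 3, female KO 1 or female KO 2 (adjusted p 0.0526 to 0.111) and with upper quartile scaling (adjusted p 0.0513) and with library size in place of TMM (adjusted p 0.180). The difference between the sexes in Atf4 was 0.072 ± 0.048 (adjusted p = 0.363). Ddit3 (CHOP), a proapoptotic factor downstream of ATF4, was low, at 14.8 ± 1.22 CPM in male WT, 15.4 ± 1.28 CPM in male KO, 15.7 ± 0.560 CPM in female WT and 17.7 ± 0.932 CPM in female KO. It was called in neither sex, with log2 fold changes of 0.055 ± 0.076 (adjusted p = 0.680) in males and 0.16 ± 0.069 (adjusted p = 0.0562) in females, and the annotation holds another, overlapping gene model of that symbol, whose reads the counting could split.

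Trib3, a pseudokinase that is induced by ATF4 and restrains it, stood at 31.8, 29.5, 30.2 and 30.2 CPM in male WT libraries and 31.3, 33.8 and 30.9 in male KO. WT females were at 26.1, 27.7, 28.1 and 29.2 CPM and KO females at 35.8, 34.2, 32.1 and 34.4. Every female KO library was above every female WT library, and female WT was below all other libraries. Trib3 rose in females by 0.29 ± 0.050 (adjusted p = 1.57e-05) and was at 0.069 ± 0.054 (adjusted p = 0.420) in males. Female minus male, the KO effect was 0.22 ± 0.074 (adjusted p = 0.0336), lost without male WT 1, male WT 4, male KO 1, male KO 3, female WT 1, female WT 2, female KO 1, female KO 2 or female KO 4 (adjusted p 0.0516 to 0.102) and with DESeq2 or no filter (adjusted p 0.0526 to 0.0608).

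Nupr1, a stress-induced chromatin protein, stood at 250.4, 229, 222 and 222 CPM in male WT libraries and 175, 182 and 150.4 in male KO. Among females, WT libraries had 179, 179, 191 and 175 CPM and KO 176, 174, 159 and 149.8. All male KO libraries were below all male WT libraries, and male WT was above the other 3 groups. Nupr1 fell in males by 0.45 ± 0.072 on the log2 scale (adjusted p = 5.17e-04), and was at -0.14 ± 0.067 (adjusted p = 0.123) in females. The difference between the sexes, 0.31 ± 0.098, had an adjusted p of 0.0501, and passed the threshold without male KO 2, female WT 3 or female KO 4 (adjusted p 0.0164 to 0.0434). DESeq2 called both this difference (adjusted p 0.00208) and the female fall (adjusted p 0.0291).

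Cebpb, a bZIP factor that pairs with ATF4, stood at 30.2, 26.8, 31.8 and 30.004 CPM in male WT libraries and 24.1, 22.9 and 16.01 in male KO. For females the WT values were 25.3, 26.8, 26.2 and 25.6 CPM and the KO values 25.5, 20.4, 14.3 and 14.4. Both KO groups were widely spread: female KO 1 lay within the female WT range and female KO 3 and 4 at about 14 CPM, and male KO 3 lay well below the other male KO libraries. Cebpb was called in females, at -0.50 ± 0.18 (adjusted p = 0.0411), and this was lost without female WT 1, female WT 2, female WT 3, female WT 4, female KO 3 or female KO 4 (adjusted p 0.0670 to 0.108) and with no filter or only the groups compared (adjusted p 0.0536 to 0.0749). In males it stood at -0.51 ± 0.18 (adjusted p = 0.0722). Its partner Cebpg was called in neither sex, with 0.040 ± 0.042 (adjusted p = 0.578) in males and 0.076 ± 0.039 (adjusted p = 0.128) in females.

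Ppp1r15a (GADD34), the phosphatase subunit that reverses eIF2α phosphorylation, stood at 36.1 ± 2.31 CPM in male WT, 32.0 ± 1.15 CPM in male KO, 34.9 ± 0.364 CPM in female WT and 36.1 ± 1.37 CPM in female KO. It was lower in male KO, at -0.18 ± 0.052 (adjusted p = 0.0105), a call that was lost without male KO 1 or male KO 3 (adjusted p 0.0548 to 0.0640). In females it stood at 0.046 ± 0.048 (adjusted p = 0.472). Between the sexes the KO effect differed by 0.23 ± 0.071 (adjusted p = 0.0226), lost without male WT 1, male WT 4, male KO 1, male KO 3, female KO 1 or female KO 3 (adjusted p 0.0501 to 0.0722).

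The 10 enzymes of amino acid and folate metabolism changed in both directions. In males 3 were higher and 3 lower (median log2 fold change -0.0089), and in females 6 were higher and 2 lower, with a median of 0.13. The male shares were 30% and 30%, against 10.1% and 10.1% of all genes. In females they were 60% and 20%, against 20.7% and 18.6%, so the female share lower was near the background. The serine pathway, which makes serine from a glycolytic intermediate in steps catalysed by Phgdh, Psat1 and Psph, was called in part. Phgdh rose by 0.21 ± 0.032 (adjusted p = 5.27e-06) in males and 0.28 ± 0.030 (adjusted p = 3.37e-09) in females. Psat1 (chr19:15904678-15947337) stood at 108, 106, 104 and 102 CPM in male WT libraries and 109, 110.1 and 115 in male KO. In females it was at 83.7, 87.1, 87.2 and 85.3 CPM in WT and 109.7, 103, 104 and 102 in KO. Female WT libraries were below all others, female KO overlapped both male groups, and male KO lay just above male WT. Psat1 rose by 0.29 ± 0.033 (adjusted p = 1.03e-08) in females and was at 0.086 ± 0.035 (adjusted p = 0.0786) in males, where it was called without male WT 1 (adjusted p 0.0340). The KO effects of the sexes differed by 0.20 ± 0.048 (adjusted p = 0.00264). Psph, the last enzyme, was called in neither sex, at -0.040 (adjusted p 0.657) in males and 0.028 (adjusted p 0.681) in females.

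Shmt2, which passes a serine carbon to folate in mitochondria, had the largest difference between the sexes of the 50 genes. It stood at 135, 127, 132 and 130.4 CPM in male WT libraries and 126, 131 and 134 in male KO. The female libraries held 98.8, 103, 105 and 105 CPM in WT and 137, 143, 131 and 130.4 in KO. Female WT libraries were the lowest by a wide margin, below every library of the other 3 groups, while male WT, male KO and female KO overlapped. The log2 fold change was 0.39 ± 0.034 (adjusted p = 1.42e-11) in females and -0.0098 ± 0.036 (adjusted p = 0.892) in males, and the difference was 0.40 ± 0.049 (adjusted p = 1.72e-07). Mthfd2, the mitochondrial folate dehydrogenase that acts on the product, rose by 0.19 ± 0.031 (adjusted p = 4.99e-06) in females and 0.12 ± 0.033 (adjusted p = 0.0110) in males, the male call being lost without male KO 3 (adjusted p 0.0520).

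Aldh1l2, which oxidises formyl folate in mitochondria, had the largest male change of the 10 enzymes. It stood at 66.2, 70.5, 77.0 and 69.8 CPM in male WT libraries and 43.2, 41.7 and 40.2 in male KO. WT females were at 63.7, 67.0, 68.7 and 66.2 CPM and KO females at 49.0, 53.9, 49.9 and 49.2. All KO libraries were below all WT libraries in both sexes, and male KO was the lowest group. Aldh1l2 fell by 0.77 ± 0.049 on the log2 scale in males (adjusted p = 5.07e-14) and by 0.39 ± 0.044 in females (adjusted p = 6.15e-09). The fall was smaller in females, with a difference of 0.37 ± 0.066 (adjusted p = 8.03e-05) that remained called under every alternative run.

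Asns, the asparagine synthetase whose CARE is printed above, stood at 211, 204, 189 and 195 CPM in male WT libraries and 213, 215 and 215 in male KO. Among females, WT libraries had 194, 190.4, 192 and 188 CPM and KO 217, 215, 207 and 207. KO libraries were above WT libraries in both sexes, and in males by a narrow margin over male WT 1. Asns rose by 0.15 ± 0.030 (adjusted p = 1.90e-04) in females. It rose by 0.099 ± 0.032 (adjusted p = 0.0266) in males, a call lost without male WT 3, male WT 4, male KO 2 or male KO 3 (adjusted p 0.0701 to 0.118).

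The proline enzymes differed from each other. Pycr1, the last step of proline synthesis, was lower in male KO, at -0.25 ± 0.087 (adjusted p = 0.0350), and this was lost without male WT 1, male WT 3, male WT 4, male KO 1 or male KO 3 (adjusted p 0.0540 to 0.213) and with DESeq2 (adjusted p 0.0510). It was at -0.10 (adjusted p 0.323) in females. Aldh18a1, the first step, was higher in female KO, at 0.11 ± 0.031 (adjusted p = 0.00307), and at -0.0081 (adjusted p 0.903) in males. Cth, which makes cysteine from cystathionine, stood at 28.2 ± 2.49 CPM in male WT, 24.95 ± 1.57 CPM in male KO, 28.1 ± 1.67 CPM in female WT and 21.5 ± 0.835 CPM in female KO. It fell in females, at -0.38 ± 0.061 (adjusted p = 4.62e-06), and was called lower in males, at -0.18 ± 0.065 (adjusted p = 0.0494), a call lost without male WT 1, male WT 2, male WT 3, male KO 1 or male KO 2 (adjusted p 0.0726 to 0.241) and with DESeq2 size factors, DESeq2 or limma-voom (adjusted p 0.0510 to 0.0744).

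Of the 6 aminoacyl-tRNA synthetases, which charge tRNAs with their amino acids, 4 were higher in female KO (Wars, Gars, Nars and Iars) and 1 in male KO (Nars), and none was lower by edgeR, DESeq2 or limma-voom. At an unadjusted p below 0.05 the counts were 6 higher and 0 lower in females and 3 and 0 in males. The shares called higher were 66.7% in females and 16.7% in males, against 20.7% and 10.1% of all genes. The median log2 fold change was 0.13 in females and 0.046 in males. Wars, for tryptophan, stood at 114, 111, 109.7 and 113 CPM in male WT libraries and 120.3, 119 and 115 in male KO. For females the WT values were 86.0, 81.2, 87.5 and 85.3 CPM and the KO values 114, 111, 109 and 111. Female WT was again below all other libraries, and male KO was slightly above male WT. Wars rose by 0.39 ± 0.032 (adjusted p = 4.87e-12) in females and was at 0.078 ± 0.033 (adjusted p = 0.0966) in males, with a difference of 0.31 ± 0.046 (adjusted p = 5.54e-06).

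Gars, for glycine, stood at 302 ± 4.51 CPM in male WT, 309.7 ± 6.08 CPM in male KO, 262 ± 8.81 CPM in female WT and 305 ± 17.4 CPM in female KO, and rose by 0.22 ± 0.032 (adjusted p = 8.55e-07) in females against 0.034 ± 0.034 (adjusted p = 0.553) in males. The difference was 0.19 ± 0.047 (adjusted p = 0.00423). Nars, for asparagine, stood at 442 ± 8.53 CPM in male WT, 466 ± 9.37 CPM in male KO, 421 ± 5.67 CPM in female WT and 471 ± 10.2 CPM in female KO. It rose by 0.16 ± 0.025 (adjusted p = 2.26e-06) in females and by 0.076 ± 0.027 (adjusted p = 0.0396) in males, the male call being lost without male WT 2, male WT 3, male WT 4, male KO 2 or male KO 3 (adjusted p 0.0635 to 0.155) and with upper quartile scaling, no filter or a filter of 5 CPM in 3 libraries (adjusted p 0.0529 to 0.0653). Iars, for isoleucine, stood at 366 ± 4.49 CPM in male WT, 381 ± 4.48 CPM in male KO, 346 ± 3.96 CPM in female WT and 369 ± 6.13 CPM in female KO and was higher in female KO at 0.092 ± 0.024 (adjusted p = 0.00236), which was lost with library size in place of TMM (adjusted p 0.0748). Sars, for serine, was at 0.0025 (adjusted p 0.969) in males and 0.067 (adjusted p 0.0666) in females, and Eprs, for glutamate and proline, at -0.0020 (adjusted p 0.971) and 0.054 (adjusted p 0.0845).

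**Figure D3:**
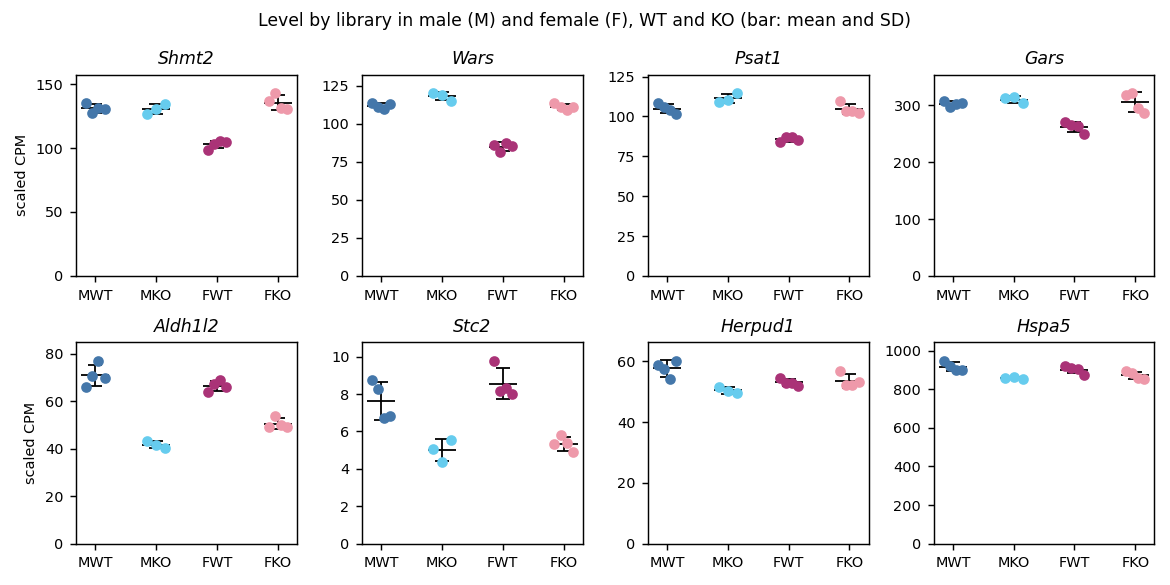
TMM-scaled CPM of single genes in each of the 15 libraries by group, with the group mean and SD. Shmt2 and Wars are lowest in female WT, Aldh1l2 and Stc2 are lower in both KO groups, and Hspa5 and Herpud1 are lowest in male KO.

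The other 4 ATF4 targets had no common direction. Stc2, a secreted glycoprotein that is induced by ER stress, stood at 8.74, 8.28, 6.74 and 6.83 CPM in male WT libraries and 5.09, 4.37 and 5.55 in male KO. In females it was at 9.78, 8.14, 8.30 and 8.01 CPM in WT and 5.31, 5.79, 5.36 and 4.91 in KO. All KO libraries were below all WT libraries in both sexes. It fell by 0.62 ± 0.12 on the log2 scale in males (adjusted p = 1.69e-04) and by 0.68 ± 0.11 in females (adjusted p = 3.50e-06). Ddit4 stood at 257 ± 4.66 CPM in male WT, 274 ± 1.98 CPM in male KO, 241 ± 5.11 CPM in female WT and 275 ± 4.35 CPM in female KO, and rose by 0.094 ± 0.028 (adjusted p = 0.0132) in males and 0.19 ± 0.026 (adjusted p = 3.26e-07) in females. Vldlr, a lipoprotein receptor, stood at 32.7 ± 1.31 CPM in male WT, 30.7 ± 2.42 CPM in male KO, 34.7 ± 1.90 CPM in female WT and 30.6 ± 0.820 CPM in female KO. It fell in females at -0.18 ± 0.052 (adjusted p = 0.00503) and was at -0.087 ± 0.056 (adjusted p = 0.310) in males. Chac1, which degrades glutathione, was called in neither sex, at -0.073 (adjusted p 0.436) in males and -0.095 (adjusted p 0.168) in females.

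The 14 ER chaperones and folding enzymes were lower in male KO or not called. In males none was higher and 5 were lower (Hspa5, Calr, Pdia4, Dnajc3 and Hyou1), a share of 35.7% against 10.1% of all genes. Their median log2 fold change was -0.094. At an unadjusted p below 0.05 the male counts were 0 higher and 8 lower, and DESeq2 and limma-voom called 0 higher and 6 and 7 lower. In females 2 were higher (Pdia6 and Sdf2l1) and 2 lower (Pdia4 and Dnajb9), with a median of -0.0017. These female shares, 14.3% each, were below the 20.7% higher and 18.6% lower of all genes. With library size in place of TMM 1 was higher and 4 lower in females. Male KO libraries lay below all male WT libraries for 8 of the 14 genes and above them for none. This separation was not counted over all genes, so no background share is given and the 8 cannot be read as a trait of the chaperones. In the same libraries fibroblast markers summed to 1792 to 1979 CPM in male KO against 3435 to 3672 in male WT, and the part of this in the chaperone values was not tested.

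Hspa5 (chr2:34771970-34777547) stood at 948, 919, 899 and 900.0 CPM in male WT libraries and 857, 864 and 854 in male KO. The female libraries held 920.5, 909.7, 905 and 873 CPM in WT and 892, 886, 859 and 853 in KO. All male KO libraries were below all male WT libraries, by a small margin, and the female groups overlapped. Hspa5 was lower by 0.095 ± 0.026 on the log2 scale in males (adjusted p = 0.00872) and was at -0.048 ± 0.024 (adjusted p = 0.120) in females. It was called lower in females with library size in place of TMM (adjusted p 0.00549) and without female KO 1 (adjusted p 0.0426). Calr fell by 0.12 ± 0.026 in males (adjusted p = 0.00103) and was at -0.032 (adjusted p 0.299) in females, where it was called lower with library size in place of TMM (adjusted p 0.0192). Pdia4, a disulfide isomerase, fell in both sexes, at -0.12 ± 0.029 (adjusted p = 0.00341) and -0.14 ± 0.027 (adjusted p = 9.38e-05).

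Dnajc3 (p58IPK), a cochaperone of BiP that also inhibits PERK, stood at 129, 127, 132 and 131 CPM in male WT libraries and 120.5, 117 and 110.0 in male KO. WT females were at 128, 129, 131 and 128 CPM and KO females at 124, 129, 128 and 122. Male KO libraries were below all others, and the female groups overlapped. Dnajc3 fell by 0.17 ± 0.033 in males (adjusted p = 3.04e-04) and was at -0.034 ± 0.031 (adjusted p = 0.414) in females. The difference between the sexes, 0.13 ± 0.046 (adjusted p = 0.0416), was lost without male WT 3, male WT 4, male KO 2, male KO 3, female WT 1, female WT 2, female WT 4, female KO 2 or female KO 3 (adjusted p 0.0649 to 0.191) and with DESeq2 size factors, upper quartile scaling, DESeq2 or no filter (adjusted p 0.0506 to 0.0754). Hyou1 (GRP170), a nucleotide exchange factor for BiP, was at -0.11 ± 0.026 (adjusted p = 0.00264) in males and -0.0020 (adjusted p 0.958) in females, with a difference of 0.11 ± 0.036 (adjusted p = 0.0399) that was lost without male WT 1, male WT 2, male WT 4, male KO 2, male KO 3, female WT 1, female WT 2, female WT 3, female WT 4, female KO 2, female KO 3 or female KO 4 (adjusted p 0.0543 to 0.132) and with upper quartile scaling or no filter (adjusted p 0.0625 to 0.0928).

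Sdf2l1, which works with ER cochaperones, stood at 18.5, 18.9, 19.4 and 18.7 CPM in male WT libraries and 18.1, 21.0 and 19.6 in male KO. Among females, WT libraries had 17.2, 17.2, 15.1 and 14.8 CPM and KO 18.5, 21.2, 19.5 and 18.5. The female groups did not overlap, with KO higher at 0.28 ± 0.067 (adjusted p = 0.00115), and the male value was 0.050 ± 0.070 (adjusted p = 0.688). Dnajb9 (ERdj4), a cochaperone and known XBP1 target, stood at 37.5 ± 3.87 CPM in male WT, 34.7 ± 0.828 CPM in male KO, 40.1 ± 1.19 CPM in female WT and 35.8 ± 1.07 CPM in female KO, and was lower in female KO at -0.16 ± 0.054 (adjusted p = 0.0153). In males it was at -0.11 ± 0.058 (adjusted p = 0.194) and was called without male WT 1 (adjusted p 0.0337).

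Dnajb11 (ERdj3) stood at 107 ± 4.92 CPM in male WT, 100.4 ± 1.20 CPM in male KO, 95.5 ± 1.83 CPM in female WT and 101 ± 3.69 CPM in female KO. It was called in neither sex, at -0.094 (adjusted p 0.0697) in males and 0.080 (adjusted p 0.0655) in females, and passed the threshold in males without male WT 3 (adjusted p 0.0296) and in females without female KO 4 (adjusted p 0.0445). Its difference between the sexes was 0.17 ± 0.051 (adjusted p = 0.0148), lost without male KO 1 (adjusted p 0.0555). Pdia6, a disulfide isomerase, was higher in female KO at 0.096 ± 0.026 (adjusted p = 0.00334), a call lost with library size in place of TMM (adjusted p 0.0775), and differed between the sexes by 0.15 ± 0.038 (adjusted p = 0.00435). The other 5 chaperones were called in neither sex. Hsp90b1 was at -0.068 ± 0.025 in males and 0.000046 ± 0.024 in females, and was called lower in males by DESeq2 (adjusted p 0.0451) and limma-voom (adjusted p 0.0366). Pdia3 was at -0.071 ± 0.027 and -0.0015 ± 0.025, and was called lower in males by limma-voom (adjusted p 0.0443). The lectin chaperone Canx was at -0.029 ± 0.030 and -0.00024 ± 0.028, Creld2 at -0.11 ± 0.055 and -0.014 ± 0.051, and the secreted factor Manf at -0.070 ± 0.046 and 0.059 ± 0.042.

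The next 5 genes serve ER-associated degradation and translocation. Herpud1 (chr8:94386438-94395377), a membrane protein of the degradation complex, stood at 58.9, 57.4, 54.1 and 60.2 CPM in male WT libraries and 51.7, 50.2 and 49.6 in male KO. For females the WT values were 54.5, 52.9, 52.8 and 51.9 CPM and the KO values 57.0, 52.1, 52.3 and 53.2. All male KO libraries were below all male WT libraries, and the female groups overlapped. Herpud1 fell by 0.19 ± 0.044 in males (adjusted p = 0.00151) and was at 0.016 ± 0.041 (adjusted p = 0.794) in females. The sexes differed in KO effect by 0.21 ± 0.060 (adjusted p = 0.0147), which was lost with library size in place of TMM (adjusted p 0.0540).

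Edem1, which hands misfolded glycoproteins to degradation, stood at 129 ± 4.60 CPM in male WT, 125 ± 3.07 CPM in male KO, 116 ± 1.81 CPM in female WT and 123 ± 2.48 CPM in female KO. It was higher in female KO at 0.094 ± 0.031 (adjusted p = 0.0159), lost without female KO 4 (adjusted p 0.0624), and at -0.046 (adjusted p 0.372) in males. Its difference between the sexes, 0.14 ± 0.046 (adjusted p = 0.0315), was lost without male WT 3, male WT 4, male KO 1, male KO 3, female WT 1, female WT 3, female WT 4, female KO 1, female KO 2 or female KO 4 (adjusted p 0.0516 to 0.139) and with DESeq2 or no filter (adjusted p 0.0555 to 0.0583). Sel1l, an adaptor of the same complex, stood at 169 ± 5.35 CPM in male WT, 160.2 ± 3.20 CPM in male KO, 165 ± 5.31 CPM in female WT and 156 ± 4.22 CPM in female KO. It was lower in female KO at -0.081 ± 0.031 (adjusted p = 0.0354), lost without female WT 1, female WT 2, female KO 1 or female KO 2 (adjusted p 0.0512 to 0.166), and in males, at -0.079 (adjusted p 0.0923), it was called without male WT 1 (adjusted p 0.0194).

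Sec61b, a subunit of the translocon, stood at 65.8 ± 3.36 CPM in male WT, 71.2 ± 1.33 CPM in male KO, 63.7 ± 1.38 CPM in female WT and 68.2 ± 1.04 CPM in female KO. It was called higher at 0.11 ± 0.040 (adjusted p = 0.0458) in males and 0.097 ± 0.038 (adjusted p = 0.0385) in females. The male call was lost without male WT 2, male WT 3, male WT 4, male KO 1, male KO 2 or male KO 3 (adjusted p 0.0620 to 0.177) and with upper quartile scaling, DESeq2, no filter or a filter of 5 CPM in 3 libraries (adjusted p 0.0543 to 0.0703), and the female call without female WT 1, female WT 3, female WT 4, female KO 1, female KO 2 or female KO 4 (adjusted p 0.0633 to 0.0956) and with upper quartile scaling, DESeq2, no filter or a filter of 5 CPM in 3 libraries (adjusted p 0.0578 to 0.0754). The ubiquitin ligase Syvn1 was called in neither sex, at -0.032 (adjusted p 0.637) in males and -0.0031 (adjusted p 0.956) in females.

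Transcripts of the sensors and their factors were lower or higher by gene. Atf6 stood at 99.4, 99.4, 107 and 106 CPM in male WT libraries and 88.3, 87.4 and 90.8 in male KO. In females it was at 102, 100.2, 101 and 101 CPM in WT and 86.2, 95.5, 91.6 and 93.8 in KO. Its KO libraries were below all WT libraries in both sexes. Atf6 fell by 0.21 ± 0.037 in males (adjusted p = 5.87e-05) and by 0.14 ± 0.035 in females (adjusted p = 0.00182).

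Xbp1, all splice forms together, stood at 131, 128, 124 and 123 CPM in male WT libraries and 112, 123 and 102 in male KO. The female libraries held 123, 126, 122 and 122 CPM in WT and 126, 121, 108 and 109 in KO. Male KO 2 reached the lower edge of male WT, and female KO was split, with KO 1 and 2 within or near the WT range and KO 3 and 4 below it. Xbp1 was lower in male KO at -0.17 ± 0.054 (adjusted p = 0.0299), lost without male WT 1, male WT 2, male KO 1 or male KO 3 (adjusted p 0.0719 to 0.175) and with no filter (adjusted p 0.0523), and at -0.090 ± 0.050 (adjusted p = 0.169) in females, where it was called without female KO 1 (adjusted p 0.0284). Eif2ak3 stood at 161 ± 5.58 CPM in male WT, 173 ± 1.99 CPM in male KO, 176 ± 3.96 CPM in female WT and 187 ± 4.26 CPM in female KO. It was higher at 0.10 ± 0.032 (adjusted p = 0.0190) in males, lost without male WT 3 or male KO 1 (adjusted p 0.0660 to 0.0742), and at 0.087 ± 0.029 (adjusted p = 0.0166) in females, lost without female WT 1, female KO 3 or female KO 4 (adjusted p 0.0549 to 0.0581). Ern1 was called in neither sex, at -0.14 (adjusted p 0.0976) in males and 0.018 (adjusted p 0.824) in females, and in males it was called without male WT 2 (adjusted p 0.0466).

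**Figure D4:**
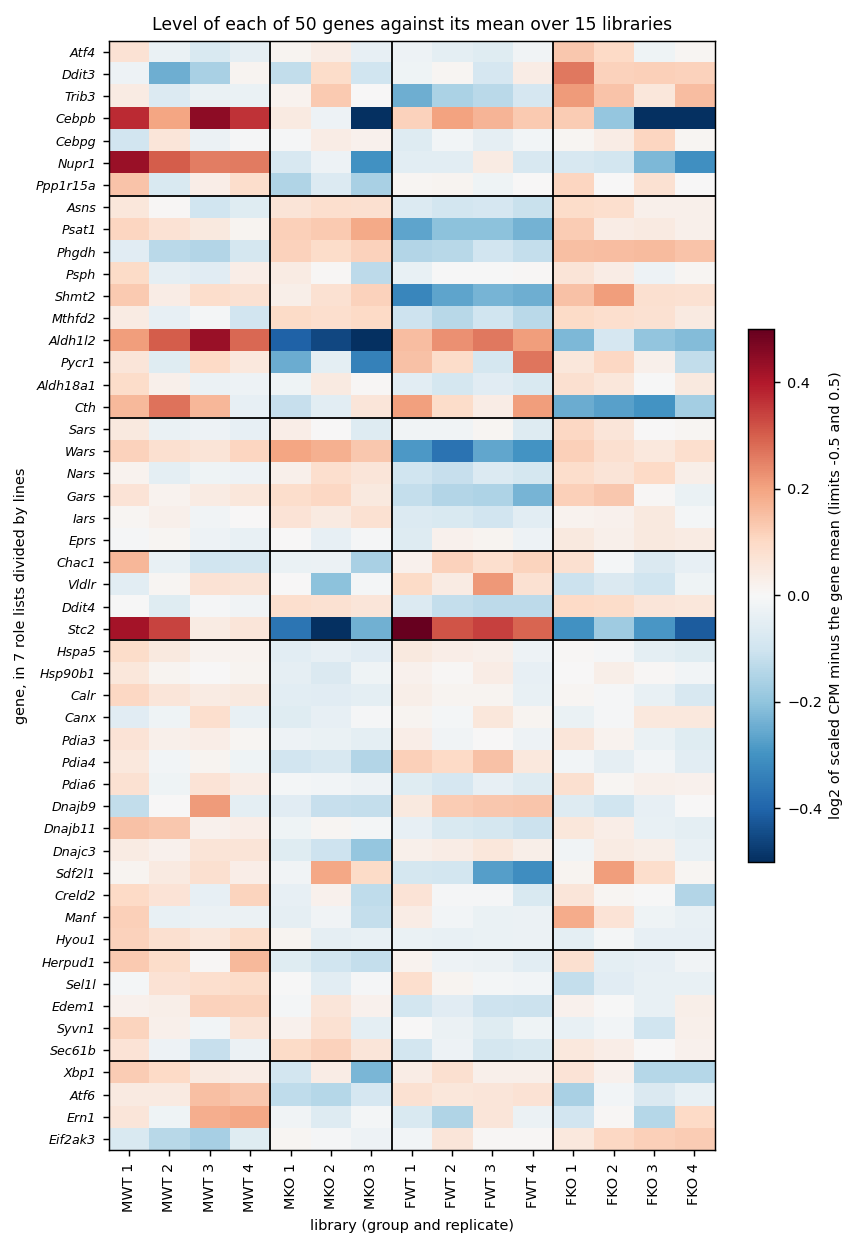
Level of each of the 50 genes (rows, grouped by role) in each of the 15 libraries (columns) as log2 difference from the gene's mean over all libraries. Female WT columns are low for many genes of amino acid metabolism and the synthetases, male WT columns are high for many chaperones, and the strongest contrasts are Aldh1l2, Stc2 and Cebpb.

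The amino acid arm (the 10 enzymes and 6 synthetases) and the chaperone arm (14 genes) were then set side by side. The amino acid arm had 4 genes higher and 3 lower in males, and 10 higher and 2 lower in females. The male 4 became 1 without male KO 3, and 2 without male WT 3, male WT 4 or male KO 2. In females 62.5% of the arm was thus higher and 12.5% lower, against 20.7% and 18.6% of all genes. The male shares were 25% and 18.75%, against 10.1% and 10.1%. As a mean of log2(CPM + 0.5) over its genes, the amino acid arm stood at 6.93 ± 0.025 in male WT, 6.90 ± 0.012 in male KO, 6.82 ± 0.0059 in female WT and 6.92 ± 0.027 in female KO (SD over libraries). Female WT libraries were below all the others. In males the arm's mean fell slightly while its median log2 fold change was above 0 (0.018), a difference in sign between measures that weight Aldh1l2 differently. The chaperone arm stood at 7.85 ± 0.016 in male WT, 7.77 ± 0.017 in male KO, 7.81 ± 0.022 in female WT and 7.81 ± 0.026 in female KO. Male KO was the lowest group for 10 of the 14 chaperones and male WT the highest for 9, ranks that were not counted over all genes. The amino acid arm minus the chaperone arm was -0.92 in male WT, -0.86 in male KO, -0.98 in female WT and -0.89 in female KO, so that the difference was smaller in KO in both sexes, with no overlap of libraries within a sex. The 9 genes with a CARE match held 1 higher and 3 lower in males and 4 higher and 1 lower in females. The 8 with an ERSE match held 0 higher and 3 lower in males and 1 higher and 0 lower in females. Over all genes 10.1% were higher and 10.1% lower in males, and 20.7% and 18.6% in females. Whether these small sets depart from those shares was not tested.

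**Figure D5:**
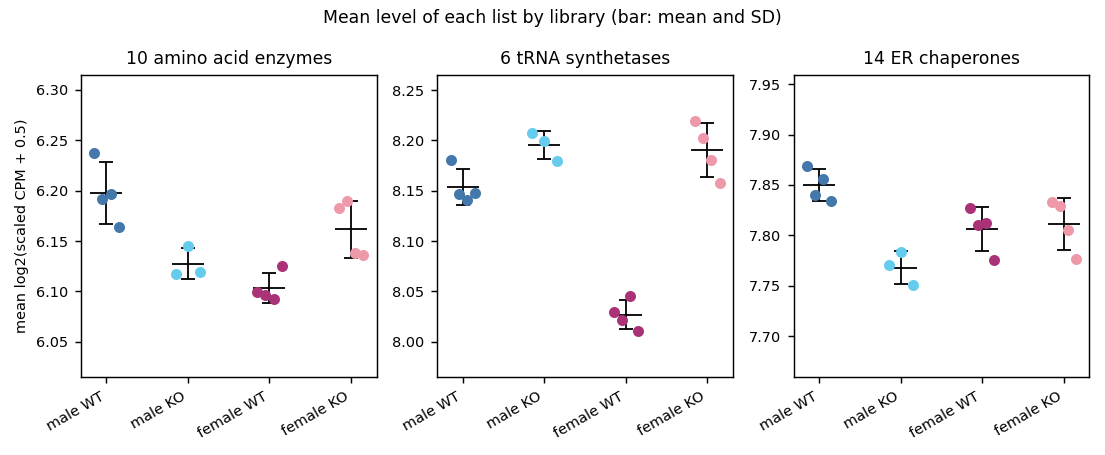
Mean log2(CPM + 0.5) of the 10 amino acid enzymes, the 6 synthetases and the 14 ER chaperones in each library by group, with group means and SDs as bars, on axes that do not start at 0. Enzymes and synthetases are lowest in female WT (6.10 and 8.03) and the chaperones in male KO (7.77).

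The KO effect differed between the sexes for 13 of the 50 genes, each with a log2 fold change that was larger (more positive) in females, and for none the other way, where 9.76% of all genes differed in the first direction and 5.89% in the second. At an unadjusted p below 0.05 the counts were 20 and 1, and DESeq2 and limma-voom called 11 and 14 in the first direction and 0 in the second. With library size in place of TMM Trib3, Ppp1r15a, Dnajb11, Dnajc3, Hyou1, Herpud1 and Edem1 lost the call and 6 kept it, while over all genes the share of differences in the first direction went from 62.4% to 46.3%. The 13 were Trib3 and Ppp1r15a among the regulators, Psat1, Shmt2, Aldh1l2, Wars and Gars in the amino acid arm, Pdia6, Dnajb11, Dnajc3 and Hyou1 among the chaperones, and Herpud1 and Edem1. Shmt2, Wars, Psat1, Gars, Aldh1l2 and Pdia6 passed the threshold under every alternative run. Leaving out 1 library gave 8 to 12 of the 50, with the count of 8 reached without male WT 4 or male KO 3.

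The difference between the sexes in KO effect includes any difference between the WT groups. In female WT against male WT, 2 of the 50 genes were higher (Pdia4 and Eif2ak3) and 18 lower, where 12.6% of all genes were called higher and 16% lower. In the amino acid arm none was higher and 8 of 16 were lower, with a median of -0.075, and DESeq2 and limma-voom gave the same counts. At an unadjusted p below 0.05 they were 0 and 10. With library size in place of TMM 11 of the 50 were lower, 4 of them in the amino acid arm, and over all genes the share called higher went from 44.1% to 55.2%. Shmt2 was at -0.35 ± 0.034 (adjusted p = 3.07e-10), Wars at -0.39 ± 0.031 (adjusted p = 4.10e-12), Psat1 at -0.29 ± 0.033 (adjusted p = 1.04e-08) and Gars at -0.21 ± 0.032 (adjusted p = 3.24e-06). Female WT was the lowest group for 21 of the 50 genes and for 11 of the 16 of the amino acid arm. All 4 female WT libraries were below every other library for 13 of the 50 genes, namely Ddit4, Nars, Gars, Pdia6, Iars, Shmt2, Aldh18a1, Mthfd2, Wars, Psat1, Edem1, Sdf2l1 and Trib3, and with library size in place of TMM for 7 of these 13. None of these counts of lowest levels was made over all genes, so no background share is given and they cannot be read as a trait of the 50. These values share the female WT libraries with the female KO effect and are set beside it as levels.

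Of 90 other genes of the same pathways that passed the filter, 13 were higher (14.4%) and 15 lower (16.7%) in male KO. In female KO 26 were higher (28.9%) and 19 lower (21.1%). Over all genes tested the shares were 10.1% and 10.1% in males and 20.7% and 18.6% in females. Among 15 other aminoacyl-tRNA synthetases, 4 were higher in males (26.7%) and 11 in females (73.3%). None was lower in either sex (0 also at an unadjusted p below 0.05). Among 21 other ER folding genes, 1 was higher (4.76%) and 6 lower (28.6%) in males. In females 4 were higher (19.0%) and 6 lower (28.6%). Among called genes whose mean reached 5 CPM in either genotype, the largest changes in males were in Creb3l1, a membrane-bound transcription factor of the ATF6 type, Fkbp14 and Fkbp11, prolyl isomerases of the ER. Creb3l1 stood at 85.0, 78.9, 79.0 and 81.6 CPM in male WT libraries and 57.9, 58.6 and 59.4 in male KO. WT females were at 73.5, 72.3, 68.6 and 75.8 CPM and KO females at 75.6, 78.4, 68.9 and 67.2. Male KO was below all other libraries, male WT above them, and the female groups overlapped. The log2 fold change was -0.47 ± 0.047 (adjusted p = 1.55e-09) in males and -0.0033 ± 0.043 (adjusted p = 0.960) in females. Fkbp14 was at -0.42 ± 0.067 (adjusted p = 1.22e-05) in males and -0.32 ± 0.059 (adjusted p = 5.22e-05) in females, and Fkbp11 at -0.39 ± 0.13 (adjusted p = 0.0256) and -0.14 ± 0.11 (adjusted p = 0.338).

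By the same measure the largest changes in females were in Fgf21, a hormone gene known as an ATF4 target, in Mthfd1l, a mitochondrial folate enzyme, and in Atf3, a stress-induced bZIP factor. Fgf21 stood at 3.98, 3.44, 2.87 and 3.31 CPM in male WT libraries and 2.42, 1.98 and 2.17 in male KO. Among females, WT libraries had 8.82, 7.71, 6.74 and 7.62 CPM and KO 3.31, 2.45, 2.86 and 2.34. Female WT was above all other libraries, and male KO was below male WT. Fgf21 fell by 1.502 ± 0.13 on the log2 scale in females (adjusted p = 1.11e-11) and by 0.64 ± 0.16 in males (adjusted p = 0.00403), against the direction of most synthetases. Mthfd1l rose by 0.43 ± 0.049 (adjusted p = 8.45e-09) in females and 0.25 ± 0.051 (adjusted p = 3.86e-04) in males. Atf3 rose by 0.41 ± 0.071 (adjusted p = 1.71e-05) in females and 0.23 ± 0.073 (adjusted p = 0.0207) in males. It is also among the immediate early genes given below as a sign of handling, so it is counted in both lists.

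Markers of other cells moved with the groups. In these bulk libraries fewer cells of a type and less RNA per cell cannot be told apart. Library totals ran from 17648416 to 30896637 counts, and the correlation of log2 CPM was at least 0.996 within groups and at most 0.995 between them. Of 12 markers of the labelled cell type 8 passed the filter, and all 12 together were at 89.97 to 95.1 CPM in WT and 77.6 to 79.9 in KO males and 104 to 120.1 in WT and 72.8 to 76.8 in KO females. Most of this sum came from Ggt1 (means of 47.7 and 37.1 CPM in WT and KO males, 68.7 and 35.5 in females) and Lrp2, both called lower in both sexes. Of the 8 tested, 2 were called lower and 1 higher in each sex, the higher one in females being Gatm. The median log2 fold change of the 8 was -0.094 in males and 0.022 in females. The phosphate transporter Slc34a1 had counts in only 1 library of each WT group (0.0555 CPM in males, 0.152 in females) and in no KO library. Fibroblast markers (9 of 10 tested) summed to 3435 to 3672 CPM in WT and 1792 to 1979 in KO males, and to 3571 to 3847 in WT and 2551 to 2780.4 in KO females. Of these, 7 were called lower in male KO and 6 lower and 2 higher in female KO. Endothelial markers (10 of 10 tested) summed to 113 to 126 CPM in WT and 52.5 to 60.1 in KO males, with 9 lower. In females they summed to 45.5 to 53.96 CPM in WT and 51.4 to 67.1 in KO, with 3 higher. Smooth muscle and pericyte markers (8 of 8 tested) summed to 3225 to 3548 CPM in WT and 2707 to 2786 in KO males, and to 3555 to 3605 in WT and 3511 to 4074 in KO females. They had 7 lower in male KO and 3 lower and 2 higher in female KO. In the order male WT, male KO, female WT and female KO, leukocyte markers summed to 22.4 to 27.6, 34.2 to 36.5, 36.5 to 44.7 and 50.5 to 61.99 CPM. Podocyte markers summed to 449 to 475, 383 to 418, 297 to 311 and 309 to 347 CPM in the same order, and distal nephron markers to 10.4 to 12.9, 6.71 to 8.51, 18.6 to 20.5 and 4.09 to 7.39 CPM. Plasma cells, which carry a large ER, had 4 of 6 markers in the table, summing to 0.83 to 1.86 CPM, with Tnfrsf17 at 0 in every library. Immediate early genes, which respond to handling of cells, had 7 of 16 higher and 2 lower in male KO and 11 higher and 1 lower in female KO. The part of these markers in the results for Creb3l1, the chaperones and the amino acid genes was not tested.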

How the data were processed

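Messenger RNA was sequenced from strand-specific libraries, per the labels' protocols. STAR 2.6.1, featureCounts, edgeR 3.26.8, limma 3.40.6 and the mm10 build are named in the submitters' processing notes. Which annotation was counted, and with which strand option, is not given in the sources used here. The authors deposited counts per gene and CPM values, and the deposited CPM equalled counts over library totals within 1e-06.

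The counts were filtered with filterByExpr (minimum count 10, minimum total 15), scaled by TMM and fitted with a robust quasi-likelihood model in edgeR 4.0.16 (R 4.3.3) with a mean per group over all 15 libraries. Of 24421 genes, 5184 had no count and 13912 were tested. Totals of 17648416 to 30896637 counts and a square root of the common dispersion of 3.59% set the precision. Contrasts were KO against WT within each sex, their difference, and female WT against male WT. A standard error is the fold change divided by the root of the F value. Exon lengths and positions came from GENCODE M21 on GRCm38. A motif in a promoter was searched on both strands.

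The members and all lists were chosen with earlier results of these data known. Genes shown by library or group were Atf4, Ddit3, Asns, Hspa5, Xbp1 and up to 4 called members per role list with the largest fold change. For other pathway genes they were up to 3 per sex at 5 CPM or more. Alternatives were scaling by DESeq2 size factors, upper quartile or library size, DESeq2 1.42.0, limma-voom (limma 3.58.1), no filter or 5 CPM in 3 libraries, only the groups compared, broader arms, the replicate number as a block, and each library left out in turn. Malrd1 (Diet1) was not analysed here, so the knockout was not checked in these libraries.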

Additional observations from a re-analysis of the deposited data

Results flagged for a closer look

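In 150 groups of 4 libraries examined (male WT, female WT and female KO for each of the 50 genes), 5 had an extreme library whose gap to its neighbour was large for the group's range, and chance gives about 1 in 20 such groups. Ddit3 was at 19.1 CPM in female KO 1, above the next library. Stc2 was at 9.78 CPM in female WT 1, the highest of its group, and Dnajb9 at 38.3 CPM in the same library, the lowest of its group. In male WT 1, Manf was highest at 133 CPM and Sel1l lowest at 161 CPM.

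For 13 of the 50 genes the log2 fold change of KO against WT differed between the sexes in edgeR's test of the difference itself. Female minus male, it was 0.22 for Trib3, 0.23 for Ppp1r15a, 0.20 for Psat1, 0.40 for Shmt2, 0.37 for Aldh1l2, 0.31 for Wars, 0.19 for Gars, 0.15 for Pdia6, 0.17 for Dnajb11, 0.13 for Dnajc3, 0.11 for Hyou1, 0.21 for Herpud1 and 0.14 for Edem1. Aldh1l2 fell in both sexes and fell less in females. Female WT was the lowest group for 8 of the 13, but the test that picked these genes is itself favoured by a low female WT. This count was not made over all genes, so it is not independent evidence.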

How the results depend on the processing

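Over the 50 genes and 4 contrasts, 3408 values under an alternative kept the side of the threshold, 192 lost the call, 50 gained one, and no called value reversed. Male counts of genes higher went from 7 to 4 with only the groups compared, and ranged from 3 to 8 without 1 library. The male amino acid arm median, 0.018, ranged from 0.014 to 0.039 without 1 library, and was 0.0058 with the replicate block, 0.012 with a filter of 5 CPM in 3 libraries and 0.013 with upper quartile scaling. With library size only, the female medians were 0.092 for the amino acid arm and -0.040 for the chaperone arm. For the difference between the sexes, 6 genes passed and the medians were 0.043 and 0.051, and for female WT against male WT 11 genes were lower and the medians were -0.051 and -0.0061. With broader arms the female amino acid median was 0.092. For the difference between the sexes, leaving out 1 library gave 8 to 12 genes, an amino acid median of 0.060 to 0.089 and a chaperone median of 0.064 to 0.104. The cause of these shifts was not tested. The male count of chaperones lower ran from 5 to 8 and the female count of amino acid genes higher from 9 to 11 over all alternatives. The count of genes with female WT below every other library, 13, was 7 with library size only, an alternative chosen after seeing the data.

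Deviations of same-numbered libraries correlated at -0.029 to 0.24 over 21 pairs, with a median of 0.042 and 2 of them above 0.1. Of 15 libraries, 8 had a same-numbered library as their best match in another group. Some sharing between same-numbered libraries is therefore possible, and the main fit does not pair them. A replicate block gave 7 higher and 17 lower in males (8 chaperones lower), 21 and 11 in females, 17 and 0 for the difference between the sexes, and 2 and 19 for female WT against male WT. The main fit gave 7 and 14, 18 and 9, 13 and 0, and 2 and 18 in the same order. With 1 pool per group, more libraries would narrow only technical error.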
